A study of Mus musculus with 6 samples.

Results

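The Notch receptors, ligands and targets of mouse embryonic stem cells (mESCs) were followed through 9 genes. These were chosen by name, with earlier results of these data known. They were the receptor genes Notch1, Notch2 and Notch3, the ligand genes Dll1, Dll3, Jag1 and Jag2, and the target genes Hes1 and Hey1. All 9 were found among the 28584 genes of the expression table, and all 9 were among the 18556 genes that reached 1 TPM in 2 or more libraries and were tested. TPM is a relative transcript level scaled by length, so that levels can be set side by side between genes. Hey1 reached 1 TPM only in the 2 libraries of cells without cytokine, and so entered the test through the group in which it was higher.

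The study asked whether oncostatin M (OSM) can take the place of leukemia inhibitory factor (LIF), a cytokine of the same family, in keeping mESCs undifferentiated. One C57BL6/129S6 line was kept on mitomycin C-inactivated mouse embryonic fibroblast (MEF) feeders for 5 passages and then moved to 3 media with the same basic composition, including 20% serum. LIF-ESCs received 1000 U/mL LIF, OSM-ESCs received 10 ng/mL OSM, and -LIF-ESCs received neither cytokine. Poly(A) RNA was sequenced at passage 10 in 2 libraries of each group, 6 in all, so every group stands for a single line, and p-values measure the spread between libraries whose separate origin in culture the labels do not give.

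Notch receptors are membrane proteins that are cut after a ligand of the Delta-like or Jagged type on a neighbouring cell binds them. The freed intracellular domain enters the nucleus, joins the DNA-binding protein Rbpj and a Mastermind-like coactivator, and turns on genes such as Hes1 and Hey1, which encode basic helix-loop-helix repressors. In mESCs the pathway is known for its part in the choice of fate as cells leave pluripotency, and in the embryo Dll1, Dll3 and Hes genes act in somite formation.

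Depth was 20712941 to 28994417 recovered reads per library. The 10 pluripotency markers summed to between 2587 and 2592 TPM in -LIF-ESCs, between 4706 and 4818 TPM in LIF-ESCs and between 4306 and 4380 TPM in OSM-ESCs. All 10 were above 1 TPM in every group, so RNA of these markers was present in all libraries. This does not show that the cells of every group were undifferentiated. In -LIF-ESCs the paper saw only differentiated colonies of large, flat cells, with Oct4, Nanog and SSEA1 protein dramatically decreased. At an adjusted p under 0.05, 9 were higher in both cytokine groups than in -LIF-ESCs, beside 42.2% and 42.9% of all genes. Nanog went the other way, with means of 433 TPM in -LIF-ESCs, 290 TPM in LIF-ESCs and 261 TPM in OSM-ESCs. The paper reports Nanog RNA as higher in both cytokine groups by RNA-seq, which is opposite to these deposited values. Markers of other cell types also differed between the groups, and bulk RNA cannot separate fewer cells of a type from less RNA per cell. The 8 markers of primitive streak and presomitic mesoderm, an early embryonic tissue that uses Notch signaling, summed to 162 to 164 TPM in -LIF-ESCs against 6.22 to 7.30 TPM in LIF-ESCs and 6.05 to 6.97 TPM in OSM-ESCs. Of the 8, 6 were lower in both comparisons with -LIF-ESCs, beside 25.9% and 25.4% of all genes. Msgn1 was at 0 in LIF-ESCs and OSM-ESCs. Mixl1, Mesp1, Msgn1 and Fgf8, which are among the 6, reached 1 TPM only in -LIF-ESCs. They thus entered the test through the group in which they were higher. Mesp2 and Tbx6 did not pass in either comparison. Mesp2 had means of 1.61 TPM in -LIF-ESCs, 1.96 TPM in LIF-ESCs and 1.85 TPM in OSM-ESCs. In -LIF-ESCs the highest means of the list were those of Fgf8 (75.7 TPM) and T (60.7 TPM). The part of primitive streak and mesoderm cells in the Notch values was not tested.

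In RefSeq (GRCm38.p6), 7 of the 9 members matched a promoter entry, with 8 windows of 250 bases upstream of a start site in all. The target genes Hes1 and Hey1 matched none, so their promoters were not searched. The windows of the receptors and the upstream one of Dll1 are printed to show a sequence feature that the 3 receptors shared and that Dll1 lacked. They are written 5′ to 3′ on the strand of the gene, and capitals mark GC boxes, GGGCGG or its reverse complement CCGCCC. Notch1 is at chr2:26503823-26504072 on the minus strand, inside the longer GENCODE gene model. Notch2 is at chr3:98013288-98013537 on the plus strand, Notch3 at chr17:32166891-32167140 on the minus strand and Dll1 at chr17:15376933-15377182 on the minus strand.
Notch1: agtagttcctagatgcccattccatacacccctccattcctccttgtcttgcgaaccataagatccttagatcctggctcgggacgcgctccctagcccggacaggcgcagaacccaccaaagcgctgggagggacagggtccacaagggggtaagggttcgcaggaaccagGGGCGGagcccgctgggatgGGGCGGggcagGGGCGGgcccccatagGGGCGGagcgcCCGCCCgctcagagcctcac
Notch2: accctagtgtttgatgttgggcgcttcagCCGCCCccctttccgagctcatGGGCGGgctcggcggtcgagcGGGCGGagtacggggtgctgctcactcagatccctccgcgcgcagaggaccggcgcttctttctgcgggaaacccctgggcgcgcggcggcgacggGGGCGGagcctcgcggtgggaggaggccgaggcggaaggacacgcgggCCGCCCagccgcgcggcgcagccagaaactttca
Notch3: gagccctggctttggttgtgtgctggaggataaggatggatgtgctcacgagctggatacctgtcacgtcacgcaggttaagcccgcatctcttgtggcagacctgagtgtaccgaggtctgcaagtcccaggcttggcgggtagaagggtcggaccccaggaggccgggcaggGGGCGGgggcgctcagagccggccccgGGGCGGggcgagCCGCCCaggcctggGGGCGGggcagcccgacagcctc
Dll1: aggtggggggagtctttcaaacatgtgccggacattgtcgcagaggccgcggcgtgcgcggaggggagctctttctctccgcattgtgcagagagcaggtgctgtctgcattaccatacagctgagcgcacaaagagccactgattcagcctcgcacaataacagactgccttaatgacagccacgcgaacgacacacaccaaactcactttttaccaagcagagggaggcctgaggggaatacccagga

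The windows of Notch1 and Notch2 held 5 GC boxes each and that of Notch3 held 4, while the Dll1 window held none, counting both strands. The window of Jag2 held 5, that of Dll3 held 1 and that of Jag1 held 0, and 32.7% of all 32851 mouse windows of this length held at least 1. GC content was 66.0% for Notch1, 72.0% for Notch2, 68.8% for Notch3 and 56.0% for the printed Dll1 window, against a median of 52.4% over all windows. It was 64.0% for the other Dll1 window, 52.0% for Dll3, 57.2% for Jag1 and 87.2% for Jag2. The Rbpj core TGGGAA was found in 0 of the 8 member windows and in 21.6% of all windows, and the Stat3 palindrome TTCNNNGAA in 0 of the 8 and in 7.02% of all, with both strands searched. None of the 8 windows belongs to Hes1 or Hey1. These counts describe letters in a short window only. No relation between these motifs and the changes was tested.

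Notch3 and Hes1 together made up 65.0% and 66.3% of the summed TPM of the 9 genes without cytokine and 47.2% and 48.2% with OSM, with both LIF-ESC libraries in between. Hes1 had the highest TPM and Notch3 the next highest in each of the 6 libraries, and Hey1 the lowest. Summed over the 9 genes, the level was 173 to 176 TPM in -LIF-ESCs, 101 to 110 TPM in LIF-ESCs and 105 to 106 TPM in OSM-ESCs.

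**Figure D1:**
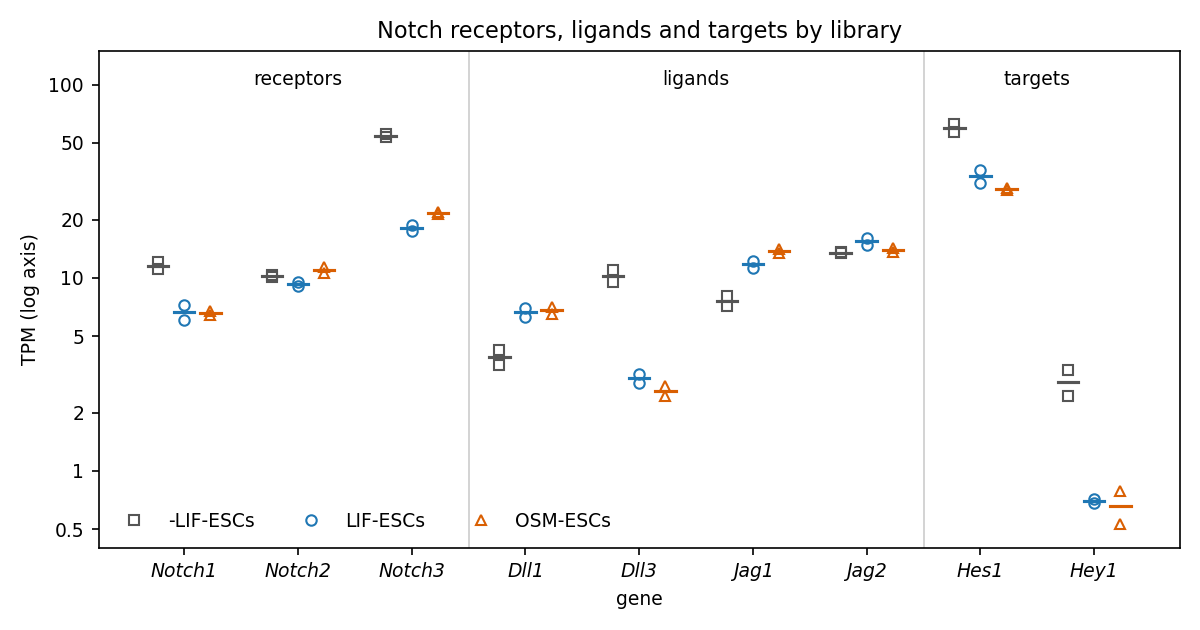
TPM of the 9 genes on a log axis, with 1 point per library and a bar at the mean of each group of 2 libraries. Notch1, Notch3, Dll3, Hes1 and Hey1 were higher in both -LIF-ESC libraries than in the other 4, and Dll1 and Jag1 were lower there.

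In LIF-ESCs relative to -LIF-ESCs, the receptors Notch1 and Notch3, the ligand Dll3 and the targets Hes1 and Hey1 fell, and the ligands Dll1 and Jag1 rose. Notch2 and Jag2 did not pass an adjusted p of 0.05. By the stricter rule of the study, which also asks for a log2 fold change of 1 or more in size (called genes), 3 members were called lower (Notch3, Dll3 and Hey1) and 0 were called higher. Among all genes tested, 8.09% were called lower and 13.3% higher. Hey1 entered the test through -LIF-ESCs alone. At the adjusted p alone, 2 members rose and 5 fell, against 42.2% and 25.9% of all genes. The median log2 fold change of the members was -0.72, and that of all genes tested was 0.17.

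In OSM-ESCs relative to -LIF-ESCs, Notch1, Notch3, Dll3, Hes1 and Hey1 fell, and Dll1 and Jag1 rose. Here 4 members were called lower (Notch3, Dll3, Hes1 and Hey1) and 0 higher, beside 7.86% and 14.2% of all genes. Hey1 entered the test through -LIF-ESCs alone, and without it 2 of 8 members were called lower in LIF-ESCs and 3 of 8 in OSM-ESCs. At the adjusted p alone, 4 of these 8 were lower in each comparison. For all 9 members in OSM-ESCs, the counts at the adjusted p alone were 2 higher and 5 lower, beside 42.9% and 25.4% of all genes. The median was -0.73 for the members and 0.18 for all genes. Both comparisons use the same 2 -LIF-ESC libraries and are therefore not independent of each other. The TPM of all 9 members did not overlap between the groups in either comparison, which also held for 84.2% and 83.9% of all genes.

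Most genes stood somewhat higher in both cytokine groups on the deposited scale, with the medians of 0.17 and 0.18 given above. When each library was rescaled by its median ratio, the medians of all genes became 0.002 and 0.005, and 4 members were called lower and 0 higher in both comparisons, beside 10.5% lower in both and 10.4% and 10.9% higher among all genes. The 4 include Hey1, which entered the test through -LIF-ESCs alone. The 7 members that passed kept their direction, and Hes1 was then also called in LIF-ESCs, with a log2 fold change of -1.01.

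**Figure D2:**
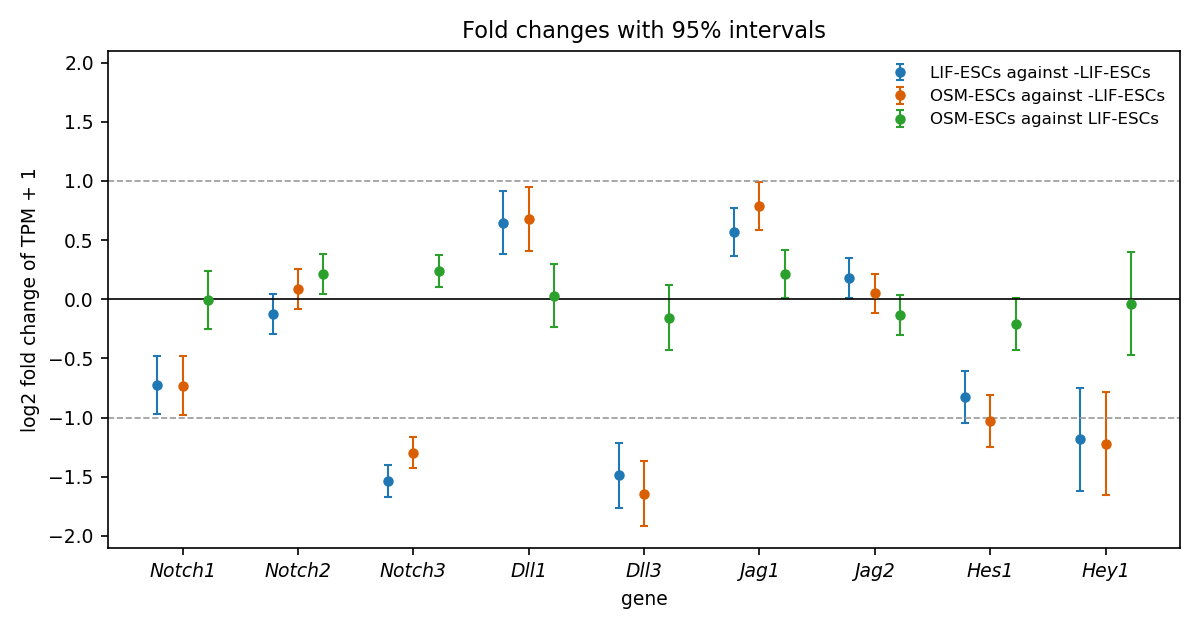
Log2 fold change of TPM + 1 for the 9 genes in the 3 comparisons, with 95% intervals from the limma fit and dashed lines at a change of 1 in either direction. Notch3, Dll3 and Hey1 lie below -1 in both comparisons with -LIF-ESCs, and all 9 changes between OSM-ESCs and LIF-ESCs lie between -0.21 and 0.24.

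Among the receptors, Notch3 had the largest change. Its gene lies at chr17:32120820-32166852 on the minus strand (GRCm38). It had 55.6 and 53.6 TPM in the 2 -LIF-ESC libraries, 18.8 and 17.6 TPM in LIF-ESCs, and 21.8 and 21.5 TPM in OSM-ESCs. The -LIF-ESC libraries were far above the other 4, and the LIF-ESC libraries were below both OSM-ESC libraries. Mean TPM was 3.00-fold lower in LIF-ESCs than in -LIF-ESCs (log2 fold change of TPM + 1, -1.53 ± 0.05 SE, adjusted p = 1.52e-05) and 2.52-fold lower in OSM-ESCs (-1.29, adjusted p = 2.29e-05). Only 3.37% of the genes tested fell further in LIF-ESCs and 4.86% in OSM-ESCs.

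Exons of Notch3 overlap the antisense gene Gm17276 over 488 bases. Gm17276 followed the same pattern, with 17.0 and 16.7 TPM in -LIF-ESCs, 5.29 and 4.14 TPM in LIF-ESCs, and 6.97 and 6.88 TPM in OSM-ESCs. The strand setting of the counting is not given in the sources used here, so reads of the shared bases cannot be assigned to one gene. Notch3 itself had 1282 to 5095 reads per library over 8089 exonic bases. Exons of Notch1 share 1482 bases in sum with 0610009E02Rik and Gm13568 on the other strand. In -LIF-ESCs, LIF-ESCs and OSM-ESCs, 0610009E02Rik had means of 8.03, 8.23 and 6.83 TPM and Gm13568 of 8.29, 6.20 and 6.06 TPM. Exons of Notch2 share 541 bases with Gm42820 on the same strand, which had means of 2.87, 2.71 and 3.09 TPM. Reads of those bases cannot be assigned either.

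Notch1, which lies at chr2:26457903-26516663 on the minus strand, fell as well, but by less. Its level was 12.1 and 11.1 TPM without cytokine, 7.22 and 6.05 TPM with LIF, and 6.46 and 6.71 TPM with OSM. Both -LIF-ESC libraries stood above the rest, and the OSM-ESC values lay within the range of the LIF-ESC values. The change was -0.72 ± 0.10 (SE) on the log2 scale in LIF-ESCs, 1.74-fold lower in TPM (adjusted p = 0.00154), and -0.73 in OSM-ESCs, 1.76-fold lower (adjusted p = 0.00149).

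Notch2, at chr3:98013527-98150361 on the plus strand, changed little in any comparison. It had 10.1 and 10.4 TPM in -LIF-ESCs, 9.52 and 9.10 TPM in LIF-ESCs, and 11.4 and 10.5 TPM in OSM-ESCs. The LIF-ESC libraries were the lowest pair and the OSM-ESC libraries the highest, with -LIF-ESCs between them and no overlap. Relative to -LIF-ESCs, the log2 fold change came to -0.13 with LIF (adjusted p = 0.150) and to 0.09 with OSM (adjusted p = 0.286). With rescaled libraries the former became -0.30 with an adjusted p of 0.00726, and the latter turned to -0.10 (adjusted p = 0.201), so the direction in OSM-ESCs depends on the scale.

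As a result, the make-up of the receptor RNA differed between the groups. Of the summed TPM of Notch1 to Notch4 in a library, Notch3 made up 69.7% and 69.2% without cytokine, 48.6% and 49.3% with LIF, and 52.2% and 51.7% with OSM. Notch2 held 12.7% and 13.4% without cytokine, 24.5% and 25.6% with LIF, and 27.2% and 25.4% with OSM. Notch3 was the most abundant receptor in every library, and its share in -LIF-ESCs was above that in the other 4 libraries. The summed receptor level averaged 78.6 TPM in -LIF-ESCs, 37.2 TPM in LIF-ESCs and 41.7 TPM in OSM-ESCs.

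The ligands moved in both directions. Dll3, which encodes a divergent Delta-like protein that does not activate Notch on neighbouring cells, lies at chr7:28293553-28302238 on the minus strand. It had 11.0 and 9.54 TPM in -LIF-ESCs, 2.84 and 3.19 TPM in LIF-ESCs, and 2.74 and 2.46 TPM in OSM-ESCs. The -LIF-ESC libraries were well above the others, and both OSM-ESC values were below both LIF-ESC values. It was 3.41-fold lower in LIF-ESCs than in -LIF-ESCs (log2 fold change -1.49 ± 0.11 SE, adjusted p = 0.00015) and 3.95-fold lower in OSM-ESCs (-1.64, adjusted p = 0.000104).

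Dll1, the Delta-like ligand that activates Notch in presomitic mesoderm, moved the other way. Its gene lies at chr17:15367354-15376872 on the minus strand. Dll1 had 4.21 and 3.54 TPM in -LIF-ESCs, 6.29 and 6.96 TPM in LIF-ESCs, and 7.09 and 6.49 TPM in OSM-ESCs. Both -LIF-ESC libraries were below the rest, while LIF-ESCs and OSM-ESCs overlapped. It rose by 0.65 ± 0.11 (SE) on the log2 scale in LIF-ESCs, 1.71-fold in TPM (adjusted p = 0.00313), and by 0.68 in OSM-ESCs, 1.75-fold (adjusted p = 0.00261). Relative to the median shift of all genes the rises were smaller, 0.49 and 0.51 with rescaled libraries, and still passed. Dll1 shares 867 exonic bases with the antisense gene A930024N18Rik, which had 1.03 and 0.978 TPM in -LIF-ESCs, 1.59 and 1.74 TPM in LIF-ESCs, and 1.88 and 1.73 TPM in OSM-ESCs.

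Within 1 library the pair Dll3 and Dll1 does not depend on scaling. The ratio of Dll3 to Dll1 TPM was 2.61 and 2.69 without cytokine, 0.452 and 0.458 with LIF, and 0.387 and 0.379 with OSM. Dll3 was thus the more abundant of the pair without cytokine and Dll1 the more abundant with either cytokine.

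Jag1, a Jagged ligand of many epithelial and vascular tissues, lies at chr2:137081456-137116644 on the minus strand. Its level was 7.12 and 8.04 TPM in -LIF-ESCs, 12.2 and 11.3 TPM in LIF-ESCs, and 14.1 and 13.5 TPM in OSM-ESCs. The 3 groups did not overlap, with -LIF-ESCs lowest and OSM-ESCs highest. It rose by 0.57 ± 0.08 (SE) on the log2 scale in LIF-ESCs, 1.55-fold in TPM (adjusted p = 0.00177), and by 0.78 in OSM-ESCs, 1.82-fold (adjusted p = 0.00052). With rescaled libraries the rises were 0.40 and 0.60, and both passed.

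Jag2, at chr12:112907819-112929776 on the minus strand, was the ligand with the highest mean TPM in each group and varied least. It had 13.6 and 13.4 TPM in -LIF-ESCs, 16.2 and 14.7 TPM in LIF-ESCs, and 13.7 and 14.4 TPM in OSM-ESCs. LIF-ESCs were the highest pair, and OSM-ESCs stood just above -LIF-ESCs. Relative to -LIF-ESCs, the log2 fold change came to 0.18 with LIF (adjusted p = 0.0555) and to 0.05 with OSM (adjusted p = 0.538). With rescaled libraries these values were 0.003 and -0.14, and neither passed.

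Of the summed TPM of Dll1, Dll3, Dll4, Jag1 and Jag2, Dll3 made up 30.4% and 27.4% without cytokine, 7.55% and 8.81% with LIF, and 7.25% and 6.62% with OSM. Jag1 held 19.7% and 23.1% without cytokine, 32.3% and 31.2% with LIF, and 37.2% and 36.2% with OSM. The summed ligand level itself averaged 35.5 TPM in -LIF-ESCs, 36.9 TPM in LIF-ESCs and 37.5 TPM in OSM-ESCs. The total was therefore similar on this scale while its make-up differed.

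**Figure D3:**
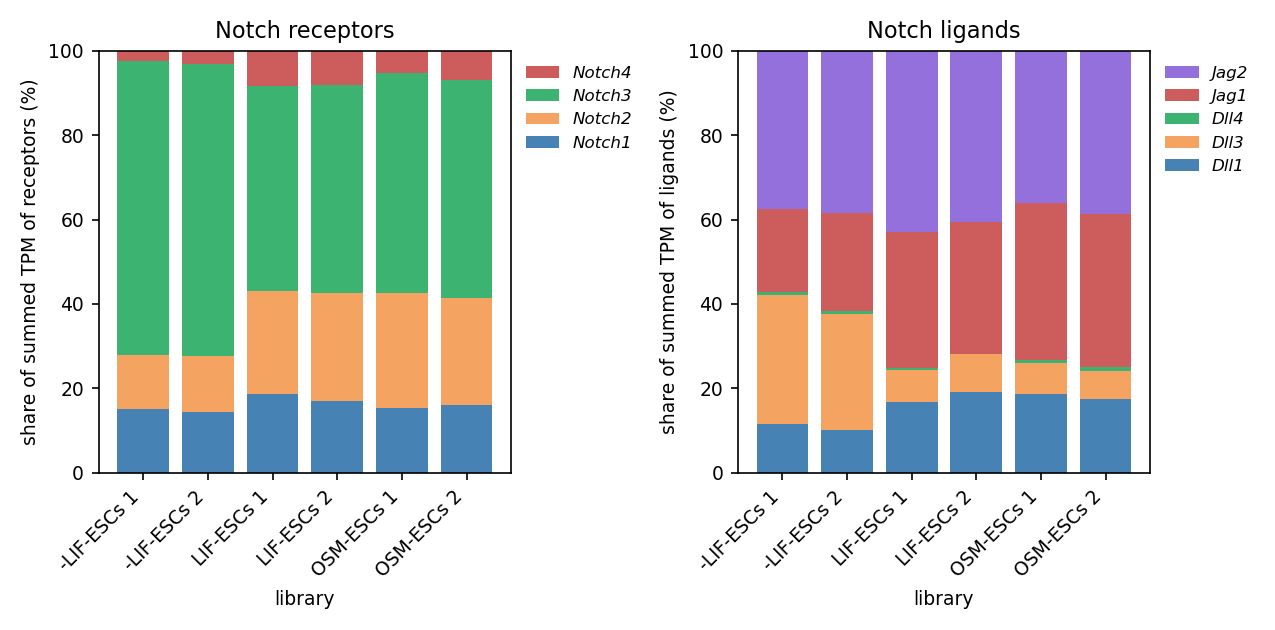
Share of the summed TPM of the receptor genes (left) and of the ligand genes (right) held by each gene, with 1 stacked bar per library. Notch3 held 69.2% or more of the receptor TPM in -LIF-ESCs and 52.2% or less in the other libraries, and Dll3 held 27.4% or more and 8.81% or less of the ligand TPM.

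Both targets were highest without cytokine. Hes1, a repressor that is a direct Notch target in many tissues, lies at chr16:30064384-30067796 on the plus strand. It had 57.1 and 62.9 TPM in -LIF-ESCs, 36.1 and 31.0 TPM in LIF-ESCs, and 28.4 and 29.3 TPM in OSM-ESCs. The 3 groups did not overlap, with -LIF-ESCs highest and OSM-ESCs lowest. Hes1 was 1.79-fold lower in LIF-ESCs than in -LIF-ESCs (log2 fold change -0.82 ± 0.09 SE, adjusted p = 0.000587) and 2.08-fold lower in OSM-ESCs (-1.03, adjusted p = 0.000252). The call in OSM-ESCs lies near the fold limit, and without -LIF-ESC library 2 the change was -0.96 (adjusted p = 0.00313), short of it.

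Hey1, a related repressor with known roles in blood vessels and heart, lies at chr3:8663359-8667256 on the minus strand. It had 2.43 and 3.32 TPM in -LIF-ESCs, 0.686 and 0.713 TPM in LIF-ESCs, and 0.788 and 0.530 TPM in OSM-ESCs. Both -LIF-ESC libraries were above the other 4, and the OSM-ESC values lay on either side of the LIF-ESC values. The mean was 4.12-fold lower in LIF-ESCs and 4.37-fold lower in OSM-ESCs, with log2 fold changes of TPM + 1 of -1.18 ± 0.17 (SE, adjusted p = 0.00202) and -1.22 (adjusted p = 0.00177). The added 1 TPM makes these log2 values smaller than the ratios of TPM. Hey1 rested on 90 and 101 reads without cytokine, 21 and 21 reads with LIF, and 26 and 21 reads with OSM, and counting alone gives a standard error of 0.25 on the log2 ratio in LIF-ESCs.

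Cells kept in OSM and cells kept in LIF differed little in these genes. Of the 9 members, 0 passed the adjusted p in limma, where 0.593% of all genes did and 0.0808% were called. At an unadjusted p under 0.05 there were 3 members, Notch2, Notch3 and Jag1, all higher in OSM-ESCs, beside 15.3% of all genes. Limma's voom on recovered reads, chosen after seeing the data, passed 2 members, Notch2 and Notch3, beside 7.85% of all genes. In 6 members the libraries did not overlap, 3 higher and 3 lower in OSM-ESCs, beside 26.3% and 20.9% of all genes and 47.1% in either direction.

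The log2 difference of Notch3 between OSM-ESCs and LIF-ESCs was 0.24 (95% interval 0.11 to 0.37, adjusted p = 0.144), and by voom 0.25 (adjusted p = 0.0041). For Notch2 it was 0.21 (0.05 to 0.38, adjusted p = 0.240), and by voom 0.23 (adjusted p = 0.0172). Jag1 differed by 0.21 (0.01 to 0.42, adjusted p = 0.305). These 3 differences were all below 0.25 on the main scale, against changes of up to -1.64 relative to -LIF-ESCs.

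Hes1 differed by -0.21 (-0.43 to 0.01, adjusted p = 0.350), Dll3 by -0.16 (-0.43 to 0.12, adjusted p = 0.563) and Jag2 by -0.13 (-0.30 to 0.04, adjusted p = 0.427). Notch1 differed by -0.01 (-0.25 to 0.24), Dll1 by 0.03 (-0.24 to 0.30) and Hey1 by -0.04 (-0.47 to 0.40), with overlapping libraries in each. The intervals leave room for differences of up to 0.47 in size for Hey1 and 0.43 for Dll3 and Hes1, so the data do not show that the 2 cytokines gave equal levels.

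Markers of other cells moved between the same groups. The 12 fibroblast markers, which describe the feeder cell type, summed to 53.2 to 57.7 TPM in -LIF-ESCs, 261 to 262 TPM in LIF-ESCs and 371 to 375 TPM in OSM-ESCs, and Col1a1 was highest of them in each group. Of the 11 tested, 11 were higher in both cytokine groups than in -LIF-ESCs, 2 were higher with OSM than with LIF, and Fap was at 0 in -LIF-ESCs. Of the 11, Col3a1, Col6a3, Postn, Lum and Dcn reached 1 TPM only in the cytokine groups. They thus entered the test through the groups in which they were higher. Among all genes, 42.2% and 42.9% were higher in LIF-ESCs and OSM-ESCs than in -LIF-ESCs. Lower were 25.9% and 25.4%, and 0.593% passed between OSM-ESCs and LIF-ESCs. The 6 markers of smooth muscle cells and pericytes, in which Notch3 is known to be expressed, summed to 419 to 442 TPM in -LIF-ESCs, 407 to 415 TPM in LIF-ESCs and 673 to 681 TPM in OSM-ESCs, and 3 of the 4 tested were higher with OSM than with LIF. Relative to -LIF-ESCs, 1 of these 4 (Acta2) was higher and 3 (Cnn1, Tagln and Des, named after their values were seen) were lower in both cytokine groups, as Notch3 was. Jag1 was ordered over the groups like the fibroblast sum, while Notch3 was highest where that sum was lowest. The part of these cells in the values of Notch2, Notch3 and Jag1 was not tested.

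The 6 markers of trophoblast and simple epithelium, led by Krt8 in -LIF-ESCs, summed to 2350 to 2372 TPM in -LIF-ESCs, 57.1 to 58.9 TPM in LIF-ESCs and 68.8 to 73.6 TPM in OSM-ESCs, and all 6 were lower in both cytokine groups. Of these 6, Cdx2 and Krt7 reached 1 TPM only in -LIF-ESCs and so entered the test through the group in which they were higher. Among all genes, 25.9% and 25.4% were lower in LIF-ESCs and OSM-ESCs. The summed trophoblast and epithelium markers and the summed primitive streak markers were highest in the same libraries as Notch1, Notch3, Dll3, Hes1 and Hey1. Of the streak markers, Mesp2 was instead lowest in those libraries. The part of such cells in the changes of these Notch genes was not tested. The 5 endothelial markers in the table ranged from 30.4 to 42.4 TPM in sum over all libraries. Pecam1 was highest of them in each group, with means of 25.9, 37.9 and 31.1 TPM in -LIF-ESCs, LIF-ESCs and OSM-ESCs. Of the 5, 3 were under 1 TPM in each group. Neural markers summed to 30.7 to 33.2, 77.7 to 80.0 and 81.6 to 86.4 TPM in -LIF-ESCs, LIF-ESCs and OSM-ESCs, and primitive endoderm markers to 8.43 to 9.91, 28.4 to 28.5 and 21.7 to 22.5 TPM.

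**Figure D4:**
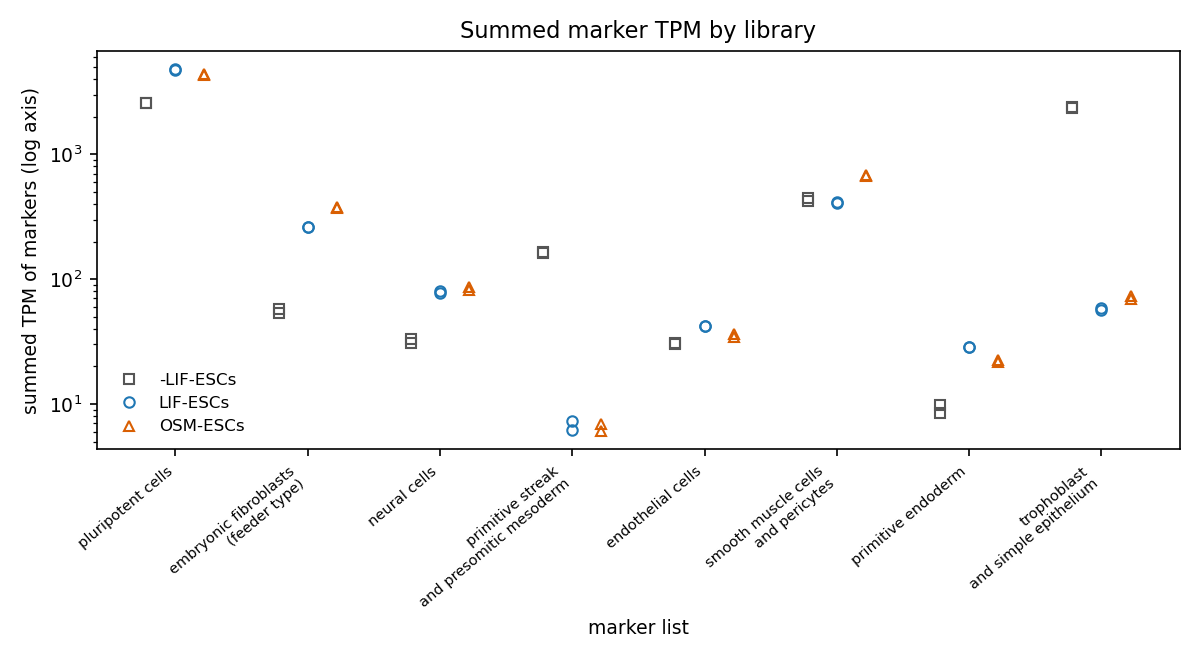
Summed TPM of 8 lists of cell type markers on a log axis, with 1 point per library. The sums for primitive streak and for trophoblast and simple epithelium are highest in -LIF-ESCs, and those for fibroblasts are lowest there and highest in OSM-ESCs.

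The rest of the pathway was read from a list of 55 other genes, of which 54 were in the table, 46 were tested and 8 were below the filter. In LIF-ESCs relative to -LIF-ESCs, 24 of the 46 rose and 8 fell, beside 42.2% and 25.9% of all genes. Of the 46, 6 were called higher and 4 called lower, shares close to the 13.3% and 8.09% of all genes called. In OSM-ESCs relative to -LIF-ESCs, 26 rose and 9 fell, beside 42.9% and 25.4% of all genes. Here 5 were called higher and 4 called lower, beside 14.2% and 7.86% of all genes. Of the 4 called lower, Dner and Maml3 reached 1 TPM only in -LIF-ESCs and so entered the test through the group in which they were higher, and 2 were called lower without them in each comparison. The median log2 fold changes of the 46 were 0.26 and 0.29, beside 0.17 and 0.18 for all genes. With rescaled libraries, 17 of the 46 rose and 13 fell in LIF-ESCs, and 18 rose and 13 fell in OSM-ESCs. Among all 18556 genes so rescaled, 6275 rose and 6248 fell in LIF-ESCs, and 6260 rose and 6229 fell in OSM-ESCs. When OSM-ESCs were set against LIF-ESCs, 0 of the 46 passed in limma.

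Rbpj, Spen and Kat2b, whose proteins act in the nucleus, were among the largest rises. Rbpj, the DNA-binding partner of the Notch intracellular domain, had 29.6 and 29.1 TPM in -LIF-ESCs, 95.5 and 92.6 TPM in LIF-ESCs, and 89.1 and 85.3 TPM in OSM-ESCs, with log2 fold changes of 1.65 and 1.54. Spen, a corepressor of Rbpj, rose from a mean of 9.61 TPM in -LIF-ESCs to 49.9 TPM in LIF-ESCs and 54.1 TPM in OSM-ESCs (2.26 and 2.38). Kat2b, a histone acetyltransferase, rose from 16.7 TPM to 63.4 and 58.6 TPM (1.87 and 1.75). These 3 genes thus rose in the groups in which Hes1 and Hey1 fell.

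The ratio of Hes1 to Rbpj TPM within a library was 1.93 and 2.16 without cytokine, 0.378 and 0.335 with LIF, and 0.318 and 0.344 with OSM. Rbpj has a pseudogene in the table, Rbpj-ps3, with a mean of 5.24 TPM in -LIF-ESCs, 25.0 TPM in LIF-ESCs and 29.7 TPM in OSM-ESCs, and reads that match both copies may have been split between them.

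Crebbp, another acetyltransferase, had a mean of 5.14 TPM in -LIF-ESCs, 11.4 TPM in LIF-ESCs and 11.2 TPM in OSM-ESCs. Its change of 1.02 was called in LIF-ESCs, while that of 0.99 in OSM-ESCs (adjusted p = 0.000348) was just short of the limit. The call in LIF-ESCs was lost without -LIF-ESC library 2 (0.93) or LIF-ESC library 2 (0.99), and with rescaled libraries (0.85). Maml3, a Mastermind-like coactivator, fell from a mean of 2.40 TPM to 0.312 TPM in LIF-ESCs and 0.222 TPM in OSM-ESCs (-1.37 and -1.48). Of the 9 nuclear activators tested, 5 rose and 2 fell in LIF-ESCs and 6 rose and 2 fell in OSM-ESCs. The 2 that fell were Maml3 and Kat2a, and Maml3 entered the test through -LIF-ESCs alone. Of 8 corepressors, 7 rose in LIF-ESCs and 6 in OSM-ESCs, and 0 fell. Among all genes, 42.2% and 42.9% rose and 25.9% and 25.4% fell. With rescaled libraries, 5 activators rose and 3 fell and 5 corepressors rose and 1 fell in each comparison. Among all 18556 genes so rescaled, 6275 rose and 6248 fell in LIF-ESCs, and 6260 rose and 6229 fell in OSM-ESCs.

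Genes that act on receptors and ligands were mixed. Poglut1, which adds glucose to Notch, rose from a mean of 15.3 TPM to 62.2 TPM in LIF-ESCs and 54.2 TPM in OSM-ESCs (1.95 and 1.76). Mib2, a ubiquitin ligase for Notch ligands, rose from 11.5 TPM to 36.9 and 35.1 TPM (1.61 and 1.53). Neurl1a, another ubiquitin ligase of this kind, fell from 19.0 TPM to 7.78 and 6.47 TPM (-1.19 and -1.42), and so 2 genes of 1 role moved in opposite directions.

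Dner, a membrane protein described as a Notch ligand, fell from a mean of 4.22 TPM in -LIF-ESCs to 0.569 TPM in LIF-ESCs and 0.741 TPM in OSM-ESCs (-1.74 and -1.59). Like Maml3, it entered the test through -LIF-ESCs alone. Of 6 genes for receptor glycosylation and maturation, 3 rose and 1 fell in both comparisons. Among all genes, 42.2% and 42.9% rose and 25.9% and 25.4% fell in LIF-ESCs and OSM-ESCs. Of 8 genes for receptor cleavage, 3 rose in LIF-ESCs and 5 in OSM-ESCs and 0 fell. With rescaled libraries 1 rose and 1 fell in LIF-ESCs and 2 rose and 2 fell in OSM-ESCs. Among all 18556 genes so rescaled, 6275 rose and 6248 fell in LIF-ESCs, and 6260 rose and 6229 fell in OSM-ESCs. Psenen, a subunit of gamma-secretase and among the 3 other pathway genes with the highest mean TPM over all 6 libraries, rose from 52.9 TPM to 63.4 and 67.8 TPM (0.26 and 0.35). Kat2a, an acetyltransferase related to Kat2b, had the highest mean TPM of the other pathway genes over all 6 libraries, although Rbpj was above it in both cytokine groups. Kat2a fell from 89.9 TPM to 74.0 and 69.0 TPM (-0.28 and -0.38).

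Nrarp, a feedback inhibitor that is itself a Notch target, fell together with Hes1 and Hey1. It had 5.20 and 4.74 TPM in -LIF-ESCs, 1.78 and 1.85 TPM in LIF-ESCs, and 1.80 and 2.08 TPM in OSM-ESCs, with log2 fold changes of -1.09 and -1.02. The call in OSM-ESCs was lost without -LIF-ESC library 1 (-0.97) or OSM-ESC library 1 (-0.96). Nrarp shares 2051 of its 2582 exonic bases with Gm38287 on the other strand. Gm38287 had means of 5.15, 1.94 and 1.97 TPM in -LIF-ESCs, LIF-ESCs and OSM-ESCs. With the strand setting not given, reads of the shared bases cannot be assigned to one gene. Of the other Hes and Hey genes, Hes3, Hes5, Hes7 and Hey2 were below the filter, with 0 to 22 reads per library.

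**Figure D5:**
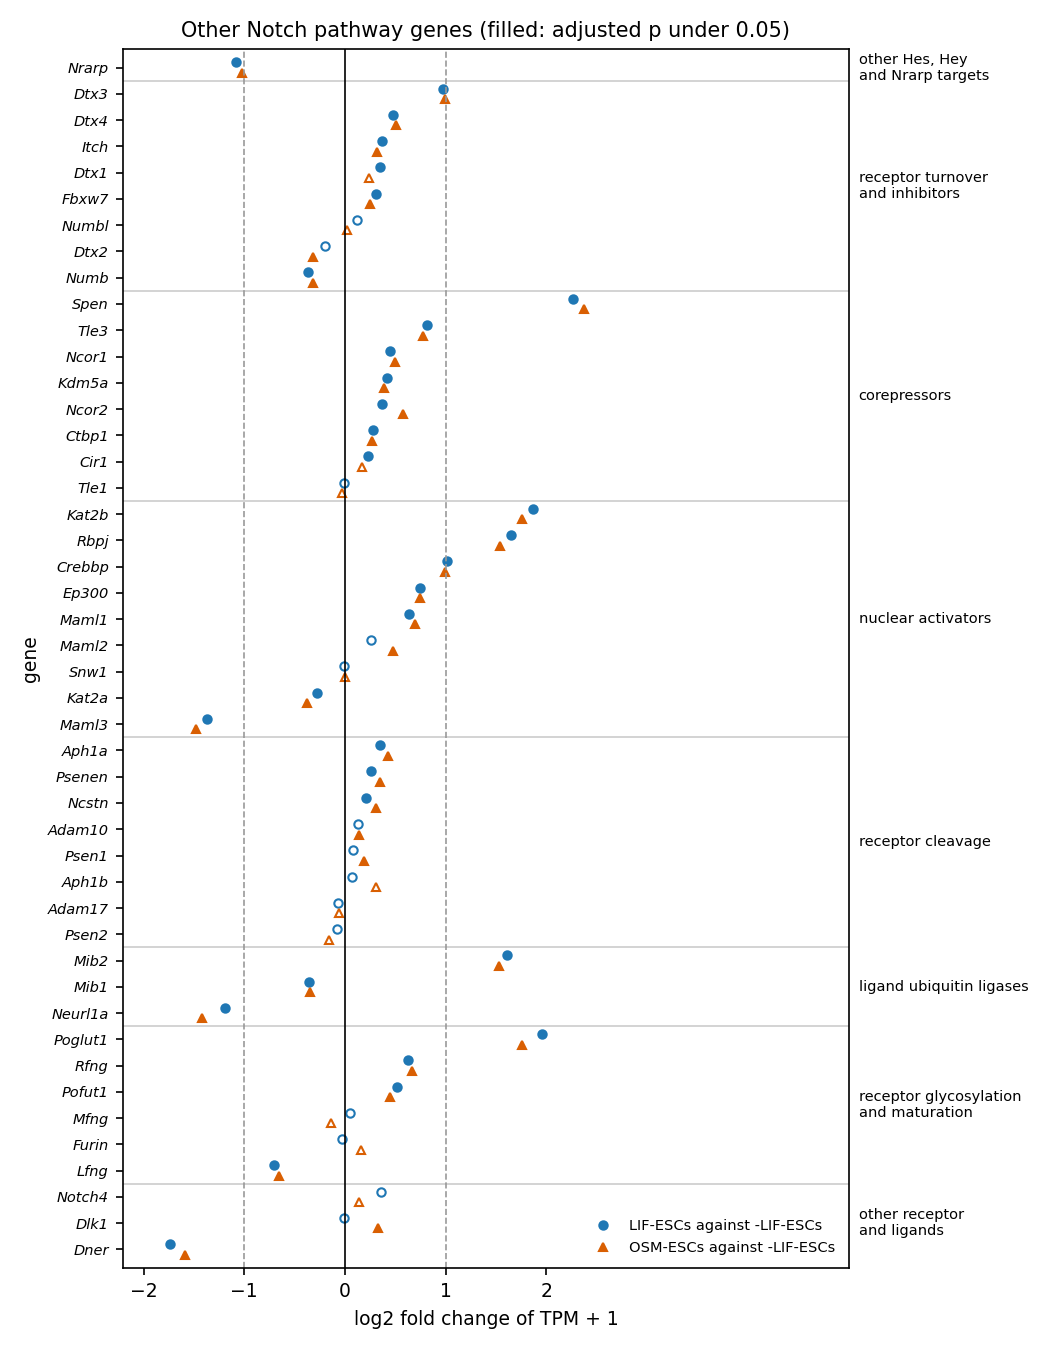
Log2 fold change of TPM + 1 for the 46 other pathway genes tested, grouped by role, in LIF-ESCs (circles) and OSM-ESCs (triangles) against the shared -LIF-ESCs, with filled symbols at an adjusted p under 0.05 and dashed lines at a change of 1 in either direction. Spen, Poglut1, Kat2b, Rbpj and Mib2 lie furthest to the right, and Dner, Maml3, Neurl1a and Nrarp furthest to the left.

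Likeness to each member was measured as the Euclidean distance between the 6 values of log2(TPM + 1), each centred on its own mean, over 13520 genes, and smaller is more alike. Notch3 was closest to S100a10 (0.10), Epha1 and Adgrl2, and Dll3 to Ppp1r1a (0.08), Ikzf4 and Slc35f5. Hes1 was closest to Ift57 (0.12), Eif3s6-ps2 and Pdk4, and Hey1 to Ctcfl (0.14), Vwa1 and Cldn23. Notch1 was closest to Ets2 (0.07), Klhl8 and Fbxo31, and Notch2 to Htt (0.06), Lama5 and Ptges2. Jag1 was closest to Fndc3b (0.08), Mobp and Camk2d, Jag2 to Epb41l1 (0.07), Dvl2 and Lama3, and Dll1 to Dzip1 (0.07), Tmem150b and Gpx4-ps2. With 3 groups of 2 libraries, this likeness mostly reflects the order of the 3 group means.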

How the data were processed

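The authors purified poly(A) RNA, trimmed reads with Trimmomatic, aligned them to mm10 with HISAT2 and counted them with featureCounts. The authors deposited TPM for 6 libraries in 1 table. The annotation, versions and strand setting are not given in the sources used here. Each deposited library sums to between 999949 and 999966 TPM, so a change in a few abundant genes shifts all others.

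Reads were recovered from TPM with GENCODE M21 exon lengths, in which 28405 symbols (99.4%) matched once, and 95.4% of values were whole within 0.02 of a read. They gave the depth of 20712941 to 28994417 reads per library and counting errors. Replicate libraries differed by more than sampling noise (mean chi-square per gene 2.03 to 3.49) and were kept as separate samples.

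Log2(TPM + 1) was compared with limma 3.58.1 in R 4.3.3 (lmFit, eBayes with a trend) over the 18556 genes at or above 1 TPM in 2 or more libraries. Residual variance was pooled over the 3 groups (3 degrees of freedom, 5.3 with the prior). Adjusted p-values are Benjamini-Hochberg values over all genes tested. An exact permutation test of 2 against 2 libraries cannot go below p = 0.333 and was not used. The authors tested counts with DESeq2, which was not repeated here because TPM was deposited. The steps were tested on simulated data.

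The members and gene lists were chosen with earlier results of these data known. Named were all 9 members, other pathway genes called in any comparison, the 3 of them with the highest mean TPM over the 6 libraries, the 3 nearest genes of each member outside the Notch lists and without a Gm, Rik or Mir symbol, and the leading or absent markers. Hes3, Hes5, Hes7 and Hey2 were named after their values were seen, as were the overlapping genes and the pseudogene of Rbpj. The same holds for Nanog, T, Mesp2 and Tbx6, and for the markers named for how they entered the test. Heyl, Emcn and Elf5 were not analysed here. The alternatives changed the filter (none, or 5 TPM) or the pseudocount (0.1), dropped the eBayes trend, rescaled libraries by the median ratio, fitted the compared pair of groups alone, used a replicate block, used the adjusted p alone, or left out each library. Voom on recovered reads, another limma method, was added after seeing the data. Python 3.11.15 (numpy 2.4.6, pandas 2.3.3, matplotlib 3.10.9) was used for tables and plots. Promoter sequences were taken from RefSeq (GRCm38.p6), and motifs were counted on both strands with overlaps allowed.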

Additional observations from a re-analysis of the deposited data

Results flagged for a closer look

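Notch2 is listed because both LIF-ESC libraries were below, and both OSM-ESC libraries above, both -LIF-ESC libraries. Neither difference from -LIF-ESCs passed in limma (-0.13 with LIF, adjusted p = 0.150, and 0.09 with OSM, adjusted p = 0.286). The log2 difference between OSM-ESCs and LIF-ESCs was 0.21 (adjusted p = 0.240 in limma) and passed by voom on recovered reads, an alternative chosen after seeing the data (0.23, adjusted p = 0.0172). With rescaled libraries the OSM value relative to -LIF-ESCs was -0.098 and by voom -0.038, so both cytokine groups were then below -LIF-ESCs. The difference between the cytokine groups with rescaled libraries was 0.20 (adjusted p = 0.213).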

How the results depend on the processing

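Counts of called members and pathway genes stayed within 1.5 times under every alternative but 2. At the adjusted p alone, 2 members were higher in both LIF-ESCs and OSM-ESCs and 5 were lower in LIF-ESCs, relative to -LIF-ESCs, and of the other pathway genes 24 rose and 8 fell with LIF and 26 rose and 9 fell with OSM. Of all genes, 42.2% rose and 25.9% fell with LIF, and 42.9% rose and 25.4% fell with OSM. With a filter of 5 TPM, which leaves out Hey1 and low pathway genes, 1 other pathway gene was called lower in each. With 1 library left out, 3 members were called lower in LIF-ESCs and 3 to 4 in OSM-ESCs, where the lower count came without -LIF-ESC library 2 (Hes1), and 5 to 7 other pathway genes were called higher in both comparisons and 4, or 3 to 4 in OSM-ESCs, lower. The lone library of a group was then assumed to vary like the others.

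The differences that turned were all small. Between OSM-ESCs and LIF-ESCs, Dll1 was -0.033 without LIF-ESC library 1 and -0.025 without OSM-ESC library 1 (range with 1 library left out -0.033 to 0.094), Hey1 was 0.074 without OSM-ESC library 2 (-0.15 to 0.074), and Notch1 was 0.10 without LIF-ESC library 1 and 0.018 without OSM-ESC library 1 (-0.12 to 0.10). In OSM-ESCs relative to -LIF-ESCs, Jag2 was -0.14 with rescaled libraries and -0.078 by voom, and Notch2 was -0.098 and -0.038. Notch2 in LIF-ESCs passed with rescaled libraries (-0.30) and by voom (-0.27, adjusted p = 0.000475), and Jag2 in LIF-ESCs passed with a filter of 5 TPM (0.18, adjusted p = 0.0480) and without LIF-ESC library 2 (0.24, adjusted p = 0.0476). The cause was not tested. The 7 members that passed relative to -LIF-ESCs kept their direction and passed under all alternatives that gave them a value.

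The replicate numbers did not pair the libraries. The differences between library 2 and library 1 correlated between groups at -0.0433, -0.0234 and 0.0265 over 18556 genes, and with the replicate block 3 and 4 members were still called lower and 0 higher. Depth limits Hey1 most, with 21 to 26 reads in each library with a cytokine, and 2 libraries a group limit all comparisons between OSM-ESCs and LIF-ESCs.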
